A study of Drosophila melanogaster with 9 samples.

Results

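The comparison described here set the 3 libraries labelled stretch follicle cells, fed (SFCs) against the 3 labelled main body follicle cells, fed, which the study calls all follicle cells (AFCs), 6 of the 9 libraries of the series. It was read in 10870 genes with enough reads for a test, of 14077 genes counted. In both groups a GFP-tagged large ribosomal subunit protein (UAS-Rpl10A-GFP in the labels, the gene *RpL10Ab*) was expressed in *Drosophila melanogaster* females under a GAL4 driver, *PG150-Gal4* for the SFCs and *GR1-Gal4* for the AFCs. Flies of both groups were kept at 25 °C for 3 days and were then fed fresh yeast paste for 2 days. Whole thoraxes and abdomens of about 100 flies were collected for each sample, the tagged ribosomes were pulled down with an antibody against GFP, and the attached mRNA was sequenced, a procedure called TRAP-seq that reads the translatome. The starved AFCs carried *GR1-Gal4* and spent 16 to 20 h on agar without yeast. They entered the choice of genes tested, the scaling of library sizes, the estimate of the spread and 1 check given with the X chromosome.

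The follicle cells are the somatic epithelium that encloses the nurse cells and the oocyte of each egg chamber. Most of them come to lie over the oocyte, secrete yolk proteins and then lay down the vitelline membrane and the chorion, the layers of the eggshell. A small anterior group flattens over the nurse cells and becomes the SFCs, which late in oogenesis acidify and clear the dying nurse cells with the help of the engulfment receptor Draper, JNK signalling and V-ATPase proton pumps. According to the study's methods *GR1-Gal4* is active in all follicle cells from early stages on, so that the AFC pull-down includes SFCs, and *PG150-Gal4* is also active in centripetal cells. The study also names weak activity outside the ovary, of *GR1-Gal4* in the gut and of *PG150-Gal4* in Malpighian tubules. The 2 groups thus differ in their driver line as well as in the cells it marks, and a difference from the genetic background, from other tissues in which a driver is active or from mRNA that binds without the tag cannot be told apart from one between follicle cell types. Because each library is a bulk sample, fewer cells of a type and less RNA per cell cannot be told apart either. The labels do not say how the 3 replicates of a group were raised apart, so the tests measure the spread between these samples.

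Levels are given as counts per 1000000 reads (CPM), computed from the authors' estimated counts on library sizes scaled by the trimmed mean of M values. An LFC is the log2 fold change of fed SFC over fed AFC from edgeR's quasi-likelihood fit, given with its SE, and a gene was called when its Benjamini-Hochberg adjusted p over all 10870 genes was below 0.05. For a single gene, an exact permutation test over 3 libraries a group has a smallest two-sided p of 0.1 and was therefore not used. Library totals were 30551253 to 45910215 reads in the SFC libraries and 35798375 to 41714626 reads in the AFC libraries. Ribosomal RNA pseudogenes took 4.31% to 36.3% of the reads in SFC libraries and 1.19% to 18.1% in AFC libraries. One library stood apart in breadth, as fed AFC replicate 1 had at least 10 reads for 13253 genes, whereas the 3 SFC libraries had 9273 to 10589 and the other 2 AFC libraries 9549 and 9563.

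The labels were first set against the genes that define the cells. *RpL10Ab*, the tagged gene, had 2211, 2105 and 1132 CPM in fed SFCs, against 2535, 4216 and 3446 CPM in fed AFCs, an LFC of -0.90 ± 0.35 that was not called (edgeR adjusted p = 0.178). The reads do not tell the transgene from the resident gene. Of all genes tested, 19.7% were at an unadjusted p below 0.05 by edgeR, and DESeq2 called 11.1% and limma-voom 3.24% of the genes each tested. None of 11 SFC marker genes was called by edgeR, with 1 at an unadjusted p below 0.05 and 0 called by DESeq2 and by limma-voom. Their LFCs had a median of 0.14, against -0.10 over all genes tested, and 9 of the 11 were above 0, as were 44.1% of all genes tested. *drpr*, which encodes Draper, was the only one of the 11 whose groups did not overlap, with 28.4, 37.7 and 42.5 CPM in fed SFCs, against 26.3, 20 and 22.7 CPM in fed AFCs (LFC 0.66 ± 0.25, edgeR adjusted p = 0.178). The BMP ligand gene *dpp* was at 18.9 CPM in SFC replicate 2 alone and at 1.77 and 2.02 CPM in the other 2 SFC libraries, against 0.832 to 3.17 CPM in fed AFCs. *trol* and *puc*, a matrix gene and a JNK target, likewise had overlapping groups, and *Vha16-1* and *Vha100-2*, subunits of the V-ATPase, had LFCs of 0.14 and -0.11. The libraries are therefore called SFC and AFC by their labels, not from these markers.

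Among the mid and late follicle cell markers, *Sox14*, a transcription factor gene of the ecdysone response, fell. It had 16.2, 23.6 and 22.2 CPM in fed SFCs, against 42.2, 79.3 and 72.9 CPM in fed AFCs (LFC -1.65 ± 0.28, edgeR adjusted p = 0.00873), and its adjusted p was 0.0526 without fed AFC replicate 3. *br*, which encodes Broad, had an LFC of -0.72 ± 0.57 (edgeR adjusted p = 0.493). The yolk protein gene *Yp1* had 7578, 14095 and 18941 CPM in fed SFCs, against 10911, 5940.2 and 9996 CPM in fed AFCs. Its groups overlapped and it was not called (LFC 0.60 ± 0.45, edgeR adjusted p = 0.467). *Yp2* and *Yp3* had LFCs of 0.61 and 0.86 and were not called either.

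Genes listed for other tissues were read in every library, and the summed levels of some of these lists moved with the groups. Of 29 genes listed as muscle markers, 13 had groups with all SFC libraries above all AFC libraries. The 29 genes had a median LFC of 1.01, with 8 called higher and 0 lower. Their summed level was 1897, 2959 and 3982 CPM in the SFC libraries, ordered from low to high, against 1166, 1490 and 1786 CPM in the AFC libraries. Of 55 midgut genes, 13 were called lower and 0 higher, against 1.78% and 1.21% of all genes, and the median LFC was -0.87. The midgut sum was 4993 to 7995 CPM in the SFC libraries, against 10718 to 16999 CPM in the AFC libraries, with no overlap. No gene of either list was at 0 in all 6 libraries. The 10 Malpighian tubule genes all had positive LFCs with a median of 0.75 and a sum of 687 to 888 CPM in SFC libraries, against 320 to 653 CPM in AFC libraries. None of them was called by edgeR, with 3 higher at an unadjusted p below 0.05, where 9.06% of all genes were, and 2 called by DESeq2 and 2 by limma-voom. The sums of the fat body, neuron, germline, male reproductive, and spermatheca and oviduct lists overlapped between the groups. For the fat body they were 821, 1301 and 2032 CPM in SFC replicates 1, 2 and 3, against 1362, 332 and 626 CPM in fed AFC replicates 1, 2 and 3. The fat body list had a median LFC of 0.42 and 0 called genes, and 2.07 and 1 without fed AFC replicate 1. The 16 hemocyte genes, with sums of 244 to 316 CPM in SFC libraries and 201 to 243 CPM in AFC libraries, included 1 called gene. For 2 of these tissues the study names weak driver activity, *GR1-Gal4* in the gut and *PG150-Gal4* in Malpighian tubules. The part of these tissues in the results was not tested.

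**Figure D1:**
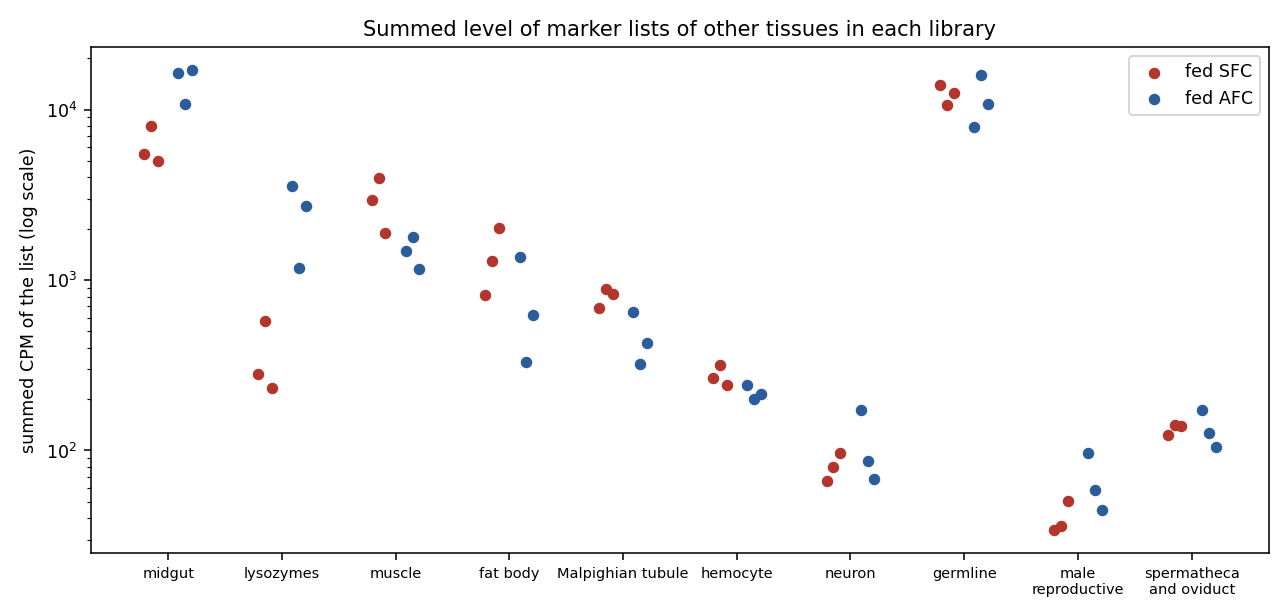
Summed CPM (log scale) of each list of genes typical of another tissue in each library, fed SFC left and fed AFC right, 1 point per library. The 3 SFC points lie below the 3 AFC points for midgut genes and lysozymes and above them for muscle and Malpighian tubule genes.

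Of the 10870 genes, 325 were called (2.99%), of which 132 were higher in fed SFCs (1.21%) and 193 lower (1.78%). In 324 of the 325 the SFC and AFC values did not overlap, as they also did not in 20.9% of all genes tested, 9.12% with all SFC libraries above and 11.8% with all below. The balance between the directions was not stable. With the trend of level with exon length removed within each library, an adjustment added after the data were seen, 169 genes were higher (1.55%) and 133 lower (1.22%), and 232 of the 325 were among them. Single libraries weighed heavily. Without fed AFC replicate 3, 85 genes were called, 83 of them shared with the 325. Leaving out SFC replicate 2 gave 83 higher and 91 lower, and fed AFC replicate 2 gave 67 higher and 138 lower. Leaving out SFC replicate 3 turned the balance, with 58.4% of 197 genes higher and 82 genes lower. With fed AFC replicate 1, which stood apart in breadth, removed there were 487. In all, 80 genes were called in each of the 6 fits that left out 1 library. Only some of these genes are pointed out below, so a gene without this remark may also be among them.

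The genes with the smallest adjusted p that rose were mostly little-described loci. *CG13947* (FBgn0031277, chromosome 2L, 779173 to 779655 of BDGP6.54) had 399.8, 614 and 414 CPM in fed SFCs, against 57.3, 33.7 and 34.4 CPM in fed AFCs (LFC 3.51 ± 0.29, edgeR adjusted p = 0.000129). *CG14645* (FBgn0040687, chromosome 3R, 4335098 to 4335506, inside the span of *Skp2*) had 2052, 3427 and 1441 CPM in fed SFCs, against 10.7, 65.4 and 26.3 CPM in fed AFCs (LFC 6.08 ± 0.71, edgeR adjusted p = 0.00097). Their groups lay far apart and both were called in all 6 leave-one-out fits. The pseudogene *CR13656* and the genes *CG14711* and *CG3906* had LFCs of 3.35, 2.30 and 3.28, and were also called in each of these fits. The others of the 12 leading genes were *TpnC41C*, *Hpd* and *Obp56d*, described with their classes, and *CG6409*, *CG42305*, *CG34324* and *CG44141*, with LFCs of 2.52, 2.50, 3.18 and 3.33. *CG45080*, one of the 10 called genes with the highest CPM, had 2629, 9379 and 4247 CPM in fed SFCs, against 972, 306 and 674 CPM in fed AFCs (LFC 3.06 ± 0.58, edgeR adjusted p = 0.0161, and 0.0693 without fed AFC replicate 3).

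Some of the genes that fell were nearly absent from the SFC libraries. *CG3397* (FBgn0037975, chromosome 3R, 11983098 to 11984541), an aldo-keto reductase gene, had 0.189, 0 and 0.105 CPM in fed SFCs, against 248, 82.9 and 216 CPM in fed AFCs (LFC -10.53 ± 0.70, edgeR adjusted p = 2.97e-05). Its neighbour *CG12224* had 9.66, 9.75 and 4.41 CPM in fed SFCs, against 281, 101 and 282 CPM in fed AFCs (LFC -4.80 ± 0.46). Another gene of this family beside them, *CG18547*, singled out after its values were seen, had 211, 236 and 146 CPM in fed SFCs, against 1080.2, 394 and 915 CPM in fed AFCs (LFC -2.01 ± 0.40, edgeR adjusted p = 0.0201, and 0.0798 without SFC replicate 3). All 3 genes were below in every SFC library, by very different factors. The pseudogene *CR33487* on the X chromosome had no read in any SFC library and 13.5, 15.2 and 17 CPM in fed AFCs, at least 648-fold lower in SFCs when a floor of 3 reads over the group is used. *DNAlig3*, a DNA ligase gene, had 25.4, 24.9 and 26.7 CPM in fed SFCs, against 171, 139 and 198 CPM in fed AFCs (LFC -2.72 ± 0.29, edgeR adjusted p = 0.000596). *CG5958* and *CG43134* fell with LFCs of -2.41 and -3.85. Apart from *CG18547*, each of these genes was called in all 6 leave-one-out fits.

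**Figure D2:**
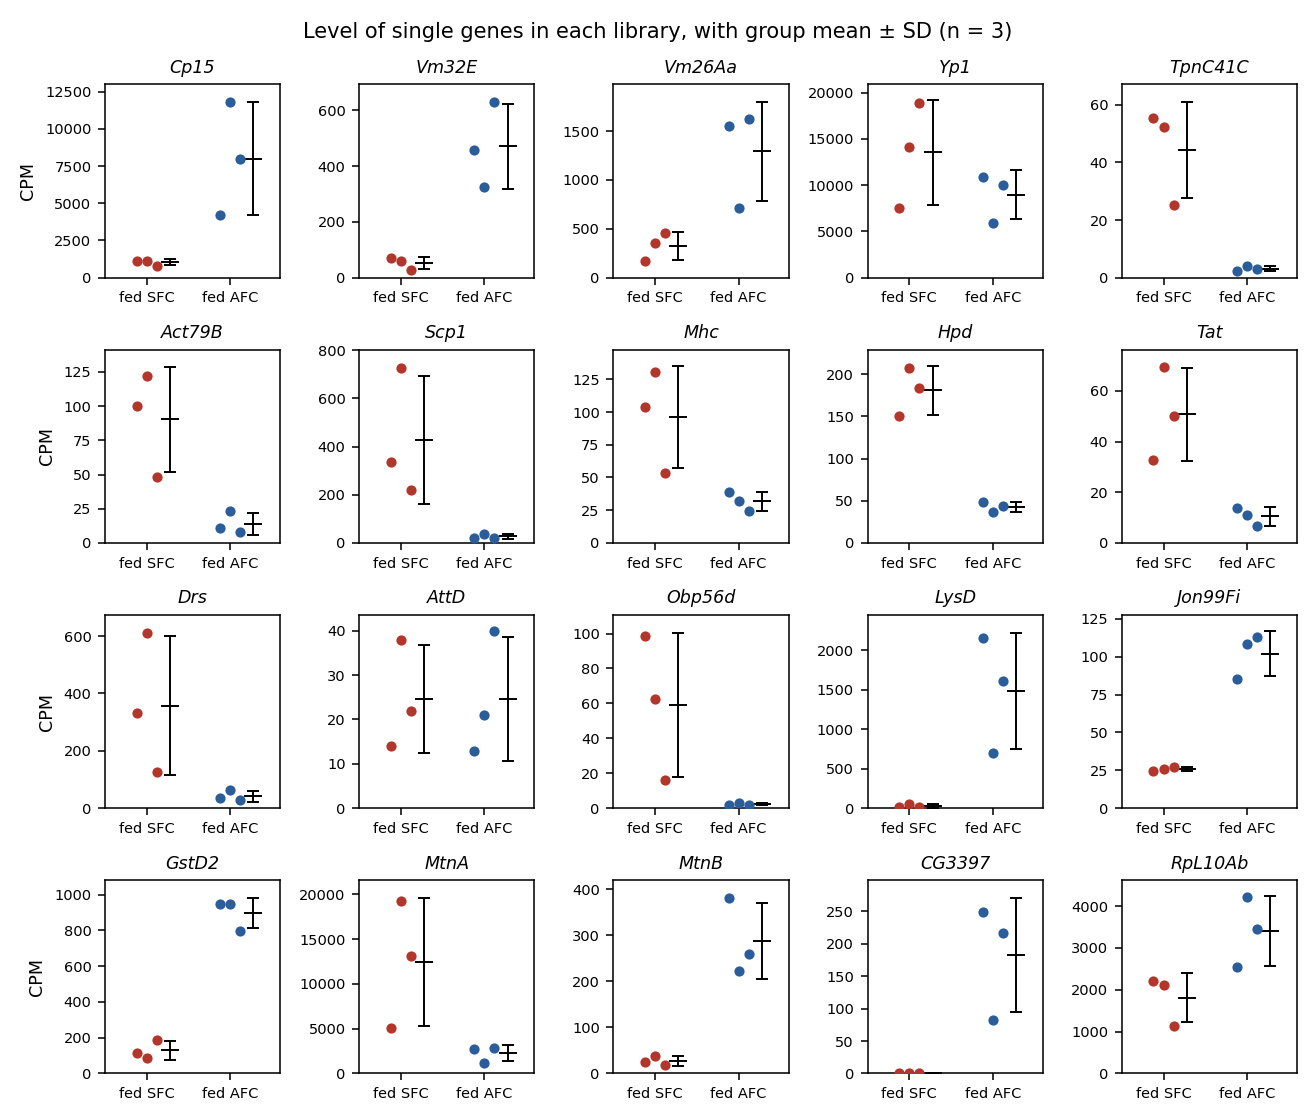
CPM of 20 genes in each library, fed SFC left and fed AFC right, with the mean and SD of each group beside the points (n = 3). *Cp15*, *LysD* and *CG3397* are low in all 3 SFC libraries, *TpnC41C*, *Hpd* and *Drs* are high in them, and the groups of *Yp1* and *AttD* overlap.

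The genome was then read through 72 lists of genes with a shared function, beside the 9 marker lists, and 117 of the 325 called genes fell in at least 1 of the 81 lists. In 15 of the 72 classes, at least 2 members were called and all called members had the same direction. That count was 8 without fed AFC replicate 3. In the sections that follow, a class is described by how many of its tested members were called in each direction, to be read against 1.21% higher and 1.78% lower among all genes, and by its median LFC, to be read against -0.10. Counts of members above or below in every SFC library are to be read against 9.12% and 11.8% of all genes. Counts at an unadjusted p below 0.05 are to be read against 19.7%, and those called by DESeq2 and limma-voom against 11.1% and 3.24%. Members outside the naming rule that are given as further examples were chosen after their values were seen.

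**Figure D3:**
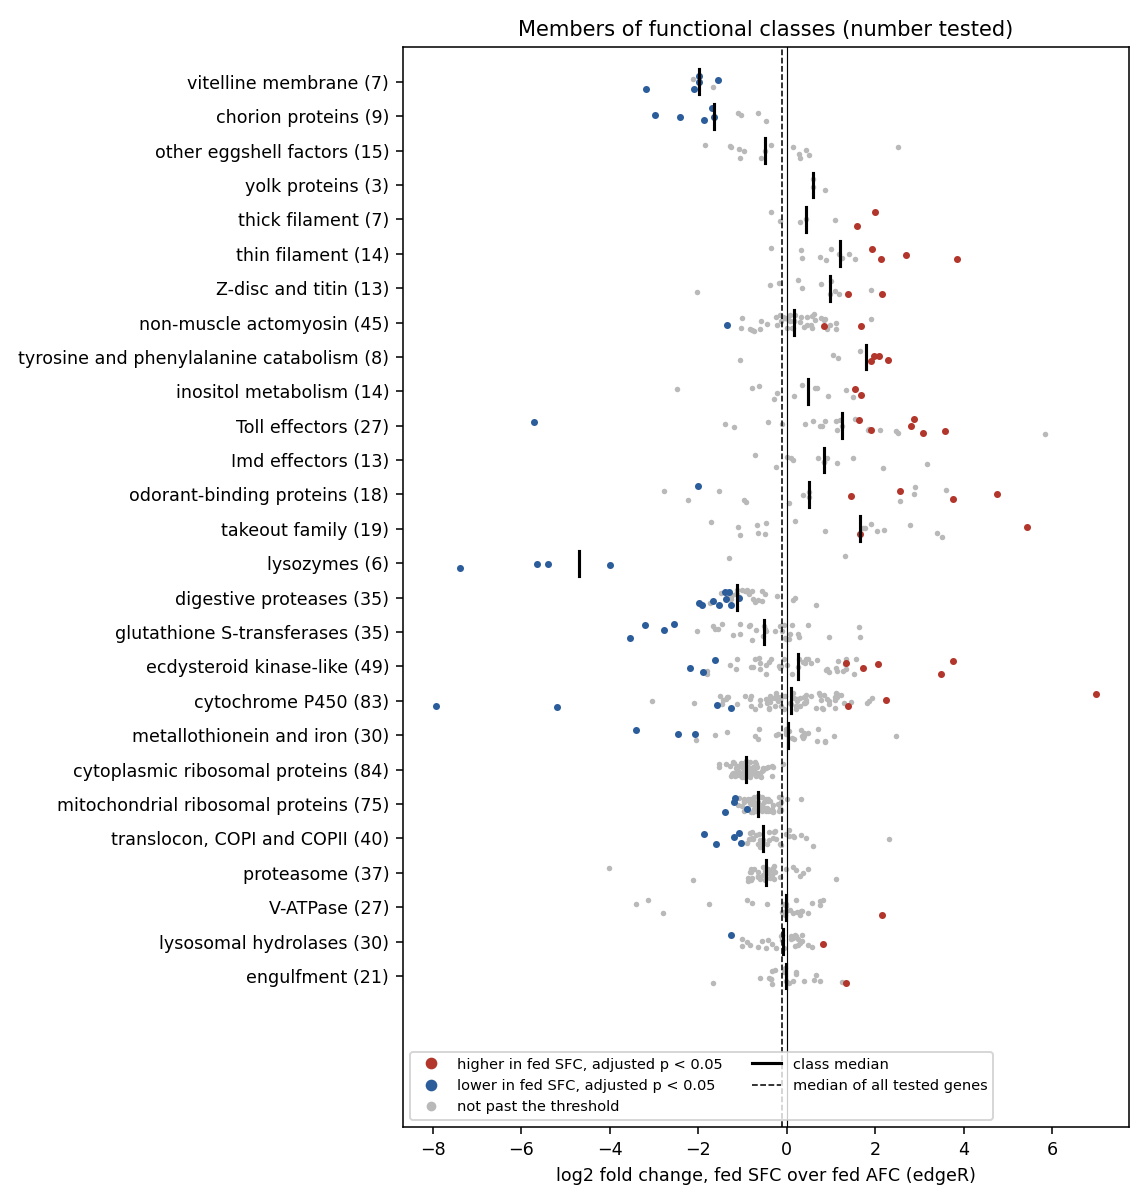
LFC of fed SFC over fed AFC for each tested member of 27 functional classes, with called members in red (higher) and blue (lower), the class median as a bar and the median of all genes as a dashed line. The called members of the vitelline membrane, chorion, lysozyme and protease classes all lie left of 0, those of thin filament and tyrosine catabolism all right of 0.

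Structural genes of the eggshell fell. The vitelline membrane is the inner eggshell layer, secreted by the main body follicle cells, and 5 of its 7 genes were called lower and 0 higher, with all 7 LFCs between -3.18 and -1.54. *Vm32E* (FBgn0014076, chromosome 2L, 11171167 to 11171665) had 69.3, 60.6 and 26.1 CPM in fed SFCs, against 457, 326 and 629 CPM in fed AFCs (LFC -3.18 ± 0.45, edgeR adjusted p = 0.00281). *Vm26Aa* had 168, 358 and 453 CPM in fed SFCs, against 1547, 712 and 1626 CPM in fed AFCs (LFC -1.99 ± 0.41, edgeR adjusted p = 0.0226). *Vml*, with the most even SFC values, had 34.9, 30.9 and 31.1 CPM in fed SFCs, against 89.5, 64.5 and 128 CPM in fed AFCs (LFC -1.54 ± 0.29, edgeR adjusted p = 0.0148). *Vm26Ab* and *Vm26Ac* were called as well, and *Vm34Ca* and *psd*, with LFCs of -2.12 and -1.67, were not (edgeR adjusted p = 0.0649 and 0.0578). Summed over the 7 genes, the vitelline membrane level was 411, 745 and 904 CPM in the SFC libraries, from low to high, against 1534, 3767 and 3803 CPM in the AFC libraries. *Vm32E* was called in all 6 leave-one-out fits, whereas the count of the class was 2, 1 and 3 without SFC replicates 1, 2 and 3 and 3, 6 and 1 without AFC replicates 1, 2 and 3. With the exon length trend removed it was 2.

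The chorion, the outer layer made after the vitelline membrane, gave 5 called genes of 9, all lower, with a median LFC of -1.63 and 8 genes below in every SFC library. *Cp15* (FBgn0000355, chromosome 3L, 8728481 to 8729066) had 1142, 1125 and 788 CPM in fed SFCs, against 4231, 11815 and 7959.5 CPM in fed AFCs (LFC -2.97 ± 0.50, edgeR adjusted p = 0.00836). *Cp16* had 127, 119 and 78.7 CPM in fed SFCs, against 374, 721 and 634 CPM in fed AFCs (LFC -2.41 ± 0.40, edgeR adjusted p = 0.00767). Both were called in all 6 leave-one-out fits. *Cp19*, *Cp18* and *Cp36* fell with LFCs of -1.87, -1.70 and -1.63, and *Cp38*, at -1.10, was not called (edgeR adjusted p = 0.0808). The called number was 2 without SFC replicate 2, without SFC replicate 3 or without fed AFC replicate 3. The class was not moved as a block, since *Cp7Fa*, an early chorion gene, had 92.4, 54.3 and 55.8 CPM in fed SFCs, against 109, 55.7 and 113 CPM in fed AFCs, with overlap (LFC -0.46 ± 0.33). Of 15 other eggshell factors, among them the vitelline and chorion scaffold gene *dec* (LFC -0.59), 0 were called by edgeR, with 6 at an unadjusted p below 0.05, 5 called by DESeq2 and 2 by limma-voom.

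Genes of the contractile apparatus rose in part. The thin filament class holds actins, tropomyosins and the troponin complex that gives muscle its calcium response, and 4 of its 14 genes were called higher and 0 lower, with 13 positive LFCs and a median of 1.21. *TpnC41C* (FBgn0013348, chromosome 2R, 5065237 to 5070210), a troponin C gene, had 55.4, 52.4 and 25.2 CPM in fed SFCs, against 2.25, 4 and 3.04 CPM in fed AFCs (LFC 3.84 ± 0.41, edgeR adjusted p = 0.000596). *Act79B*, a muscle actin gene, had 100.3, 122 and 48.1 CPM in fed SFCs, against 10.9, 23.1 and 7.74 CPM in fed AFCs (LFC 2.70 ± 0.44, edgeR adjusted p = 0.00712). Both were called in all 6 leave-one-out fits. The troponin T gene *up* and the troponin I gene *wupA* rose with LFCs of 2.14 and 1.94 (edgeR adjusted p = 0.0196 and 0.0376), and the tropomyosin genes *Tm1* and *Tm2*, at 1.17 and 1.41, were not called. Without fed AFC replicate 3, 2 thin filament genes and 1 thick filament gene were called. In the thick filament class 2 of 7 genes rose, the myosin light chain gene *Mlc1* (LFC 2.00 ± 0.32) and the muscle myosin heavy chain gene *Mhc*. *Mhc* had 104.2, 130.4 and 53.7 CPM in fed SFCs, against 38.8, 32.3 and 24.3 CPM in fed AFCs (LFC 1.59 ± 0.37, edgeR adjusted p = 0.0391, and 0.175 without fed AFC replicate 3). In the Z-disc and titin class 2 of 13 rose, the projectin gene *bt* (LFC 2.15) and *CG1674* (LFC 1.38), and the class had 0 called genes without SFC replicate 2, without fed AFC replicate 2 or without fed AFC replicate 3. Calcium handling genes had 1 called member of 19 and a median LFC of 0.14. This member, *Scp1*, which encodes a sarcoplasmic calcium-binding protein, had 336, 728 and 221 CPM in fed SFCs, against 21.6, 38.5 and 21.7 CPM in fed AFCs (LFC 3.97 ± 0.55, edgeR adjusted p = 0.00273, called in all 6 leave-one-out fits).

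Muscle markers moved with these genes, and the lists overlap. Of the 29 muscle markers, 28 are members of the thin filament, thick filament, Z-disc or calcium handling classes, 96.6% of the markers and 52.8% of the 53 genes tested in these 4 classes, and the 8 called muscle markers are among the shared genes. The part of muscle RNA in the difference was not tested. Some genes of the muscle list were also studied in follicle cells. For *TpnC41C* the study also reports higher single-cell RNA levels in SFCs. After RNAi of *TpnC41C* or *Scp1* with *GR1-Gal4*, the study reports nurse cell nuclei that persisted. For RNAi of *Act79B*, another called gene of the muscle list, it lists no phenotype. Sarcomere genes did not all move, as the myofilin gene *Mf* had 240.1, 279 and 137 CPM in fed SFCs, against 191, 331 and 211 CPM in fed AFCs (LFC -0.16 ± 0.29). The cytoskeleton genes that every cell uses gave a different picture. Of 45 genes of non-muscle actomyosin, 2 were called higher and 1 lower, with a median LFC of 0.17. *Unc-115b*, which encodes an actin-binding LIM protein, had 97.9, 146 and 111 CPM in fed SFCs, against 38.8, 25.3 and 46.1 CPM in fed AFCs (LFC 1.68 ± 0.27, edgeR adjusted p = 0.00707, called in all 6 leave-one-out fits). The myosin V gene *didum* rose (LFC 0.85) and *Arpc4*, of the Arp2/3 complex that branches actin, fell (LFC -1.34), with adjusted p-values by edgeR of 0.206 for *didum* without fed AFC replicate 3 and 0.106 for *Arpc4* without SFC replicate 2. The call of *didum* was kept in 0 of the 6 leave-one-out fits. *Act5C*, the general cytoplasmic actin gene, was not called (LFC -0.78 ± 0.26), and *alphaTub84D* was the 1 tubulin gene of 9 that was called, lower at an LFC of -1.11, and its adjusted p by edgeR was 0.175 without fed AFC replicate 3.

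Genes for the breakdown of tyrosine rose. Phenylalanine hydroxylase makes tyrosine, a transaminase and a dioxygenase turn it into homogentisate, and 3 further steps end in fumarate and acetoacetate. Of 8 genes 4 were called higher and 0 lower, with a median LFC of 1.78. *Hpd* (FBgn0036992, chromosome 3L, 20438166 to 20439872), the 4-hydroxyphenylpyruvate dioxygenase gene, had 151, 207.5 and 184 CPM in fed SFCs, against 48.2, 36.4 and 43.7 CPM in fed AFCs (LFC 2.08 ± 0.22, edgeR adjusted p = 0.000596). *Tat*, the tyrosine aminotransferase gene before it in the pathway, had 32.8, 69.4 and 50.2 CPM in fed SFCs, against 13.6, 11.1 and 6.56 CPM in fed AFCs (LFC 2.28 ± 0.38, edgeR adjusted p = 0.00836). *hgo*, the homogentisate dioxygenase gene after it, had 22.9, 22.6 and 28.7 CPM in fed SFCs, against 8.06, 4.77 and 6.02 CPM in fed AFCs (LFC 1.98 ± 0.32, edgeR adjusted p = 0.00707). *Faa*, the fumarylacetoacetase gene of the last step, had 31.8, 24.5 and 27.9 CPM in fed SFCs, against 8.83, 6.54 and 6.98 CPM in fed AFCs (LFC 1.91 ± 0.34, edgeR adjusted p = 0.0123). The SFC range of each of these 4 genes was well above its AFC range, and the class had 4 called genes in each leave-one-out fit but the one without fed AFC replicate 3, which had 3, with *Faa* at an adjusted p of 0.076 by edgeR. *Hn*, which encodes phenylalanine hydroxylase, had an LFC of 1.06 ± 0.26 and was not called (edgeR adjusted p = 0.0532). *GstZ1*, for the isomerase step between *hgo* and *Faa*, had 13.9, 11.2 and 14.8 CPM in fed SFCs, against 31.3, 20.7 and 30.4 CPM in fed AFCs, below in every SFC library and not called (LFC -1.04 ± 0.34, edgeR adjusted p = 0.122). *Hpd* overlaps the gene *CtIP*, and without strand reads from both cannot be told apart.

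Inositol genes rose in part. Of 14 genes, 2 were called higher and 0 lower, the inositol monophosphatase family genes *CG17027* and *CG17028*, with LFCs of 1.68 ± 0.37 and 1.55 ± 0.33 (edgeR adjusted p = 0.0315 and 0.0276). These genes and the third of the row, *CG17029*, which had 269, 354 and 230.2 CPM in fed SFCs, against 166, 68.7 and 101 CPM in fed AFCs (LFC 1.34 ± 0.34, edgeR adjusted p = 0.0539), lie within the span of *brm*. *Inos*, for the enzyme that makes inositol phosphate from glucose 6-phosphate, had 118, 113 and 85.2 CPM in fed SFCs, against 158, 179.8 and 209.9 CPM in fed AFCs and was not called (LFC -0.79 ± 0.22, edgeR adjusted p = 0.0801). The class had 0 called genes without SFC replicate 2, without fed AFC replicate 2 or without fed AFC replicate 3. In other metabolic classes 1 or 2 genes were called. *Hex-C*, a hexokinase gene, had 206, 254 and 175 CPM in fed SFCs, against 90.2, 79.7 and 81.8 CPM in fed AFCs (LFC 1.34 ± 0.22, edgeR adjusted p = 0.00724, called in all 6 leave-one-out fits), and was the only 1 of 16 glycolysis genes called. *Hao*, for a hydroxyacid oxidase, and *Gabat*, for GABA transaminase, are in none of the metabolic lists and rose with LFCs of 1.56 and 1.39, and were chosen after their values were seen. *Gabat* was at an adjusted p of 0.0849 by edgeR without fed AFC replicate 3. Of 32 genes of amino acid and organic acid catabolism, 2 were called lower and 0 higher, with a median LFC of 0.08. These were *Oat*, for ornithine aminotransferase, and *kar*, a monocarboxylate transporter gene. Their LFCs were -1.33 and -1.33, and that of the phosphoenolpyruvate carboxykinase gene *Pepck2*, the 1 gene called of 26 in the TCA cycle list, was -1.77. The 3 genes had adjusted p-values by edgeR of 0.112, 0.184 and 0.152 without fed AFC replicate 3. *Acbp3*, for an acyl-CoA-binding protein, had 22.5, 68.9 and 56.5 CPM in fed SFCs, against 254.97, 133 and 283 CPM in fed AFCs (LFC -2.18 ± 0.40, edgeR adjusted p = 0.0129, and 0.0509 without fed AFC replicate 3).

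Genes listed as immune effectors of the Toll pathway rose in part. Toll signalling, known from the fat body, ends in NF-kappaB factors that turn on small secreted peptides such as drosomycin, the bomanins and baramicin. Of 27 tested effectors of 30 listed, 6 were called higher and 1 lower, with 22 positive LFCs and a median of 1.25. Whether each listed gene, *Listericin* and *Drsl3* among them, answers to Toll was not tested. *Drs* (FBgn0283461, chromosome 3L, 3369556 to 3369942), for drosomycin, had 333, 612 and 127 CPM in fed SFCs, against 35, 64.2 and 27.6 CPM in fed AFCs (LFC 3.08 ± 0.53, edgeR adjusted p = 0.0093, called in all 6 leave-one-out fits). The bomanin gene *BomS1* had 168, 278 and 86.3 CPM in fed SFCs, against 15.8, 41.9 and 18.5 CPM in fed AFCs (LFC 2.81 ± 0.62, edgeR adjusted p = 0.0312). The baramicin gene *BaraA2* had 130.1, 145 and 71.5 CPM in fed SFCs, against 20.3, 47.9 and 24.3 CPM in fed AFCs (LFC 1.90 ± 0.35, edgeR adjusted p = 0.0131). For all 3 the lowest SFC library was replicate 3 and it still exceeded every AFC library. *Listericin*, *BomBc3* and *BomT3* also rose, with LFCs of 3.57, 2.87 and 1.63. The 1 effector that fell was *Drsl3*, a drosomycin-like gene, with 0.189, 1.76 and 0.0841 CPM in fed SFCs, against 9.58, 16.6 and 61.7 CPM in fed AFCs (LFC -5.70 ± 1.03, edgeR adjusted p = 0.0129, called in all 6 leave-one-out fits). The class had 3 called genes without SFC replicate 2 and 2 without fed AFC replicate 3, and 12 with the exon length trend removed, 11 of them higher. Upstream, *SPE*, the protease gene that activates the Toll ligand Spätzle, was the only 1 of 31 pathway genes called (34.2, 29.6 and 30 CPM in fed SFCs, against 15.6, 12.7 and 12.5 CPM in fed AFCs, LFC 1.20 ± 0.27, edgeR adjusted p = 0.0335, and 0.187 without fed AFC replicate 3).

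The Imd pathway, the other arm of fly antibacterial defence, gave no call. Of 13 tested Imd effectors 0 were called by edgeR, with 3 at an unadjusted p below 0.05, 1 called by DESeq2 and 0 by limma-voom, and the median LFC was 0.83. The attacin gene *AttD* had 14.1, 37.9 and 21.8 CPM in fed SFCs, against 12.8, 21.1 and 40 CPM in fed AFCs, with full overlap. *PGRP-SC2*, for an amidase that degrades peptidoglycan, had 9.83, 9.12 and 9.5 CPM in fed SFCs, against 31, 34.7 and 39.6 CPM in fed AFCs (LFC -1.89 ± 0.36, edgeR adjusted p = 0.0155, and 0.0814 without fed AFC replicate 3), and is also on the midgut marker list.

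Small secreted carrier proteins gave some of the largest LFCs. Odorant-binding proteins were first described in the antennae and are also made in other tissues. Of 18 tested members of 48 listed, 4 were called higher and 1 lower. *Obp56d* had 98.4, 62.6 and 15.9 CPM in fed SFCs, against 2.07, 2.8 and 1.7 CPM in fed AFCs (LFC 4.75 ± 0.59, edgeR adjusted p = 0.0014, called in all 6 leave-one-out fits). Its neighbour *Obp56a* rose with an LFC of 3.75, *Obp57c* with 2.57 and *Obp99a* with 1.46. *Obp99a* had the most even values, 147, 128 and 157 CPM in fed SFCs, against 48.9, 45.4 and 62.5 CPM in fed AFCs. Its call was kept in 0 of the 6 leave-one-out fits, with an edgeR adjusted p of 0.136 without fed AFC replicate 2. *Obp19c* went the other way, with 33.8, 18.6 and 19 CPM in fed SFCs, against 91.3, 78.9 and 117 CPM in fed AFCs (LFC -2.01 ± 0.35, edgeR adjusted p = 0.0114). The takeout family, related to juvenile hormone-binding proteins, had 2 called members of 19, both higher, and a median LFC of 1.65. One of them, *Jhbp12*, had 12.3, 21.5 and 3.95 CPM in fed SFCs, against 0.325, 0.41 and 0.128 CPM in fed AFCs (LFC 5.42 ± 0.86, edgeR adjusted p = 0.00644, called in all 6 leave-one-out fits). The other, *Jhbp13*, stood at an adjusted p of 0.0499 by edgeR and at 0.182 without fed AFC replicate 3. Without that library 1 odorant-binding protein gene was called.

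Genes of digestion fell in part. Lysozymes of the fly midgut digest bacteria taken up with food, and 4 of 6 tested genes were called lower in every leave-one-out fit, with LFCs from -7.38 to -3.99. *LysD* (FBgn0004427, chromosome 3L, 1210717 to 1211196) had 16.4, 54.2 and 18.3 CPM in fed SFCs, against 2148, 695 and 1605 CPM in fed AFCs (LFC -5.65 ± 0.58, edgeR adjusted p = 0.000545). *LysB*, *LysC* and *LysE* lie beside it, and as near copies they may share reads. *LysP*, a lysozyme gene a few kilobases away that is known from the salivary gland, had 246, 480.1 and 194 CPM in fed SFCs, against 191, 48.8 and 128 CPM in fed AFCs, above in every SFC library and not called (LFC 1.32 ± 0.45, edgeR adjusted p = 0.144). Digestive proteases, the trypsins and Jonah chymotrypsins of the midgut, had 9 called genes of 35, all lower, with 32 negative LFCs, 21 genes below in every SFC library and a median of -1.12. *Jon99Fi* had 24.6, 26 and 26.9 CPM in fed SFCs, against 85.1, 108 and 113 CPM in fed AFCs (LFC -1.98 ± 0.21, edgeR adjusted p = 0.000596). *Jon99Ciii* had 302, 409 and 285 CPM in fed SFCs, against 1222, 1025 and 1487 CPM in fed AFCs (LFC -1.91 ± 0.28, edgeR adjusted p = 0.00398). Within each gene the 3 SFC values lay close together. *alphaTry*, a trypsin gene, was below in every SFC library and not called (LFC -1.24 ± 0.34, edgeR adjusted p = 0.0787). The protease count was 3 without fed AFC replicate 3 and 3 with the exon length trend removed. Of the midgut markers, 43 of 55 are members of the lysozyme, protease or glycosidase lists, including 11 of the 13 called, so the marker list and these classes are largely the same genes. The part of gut RNA in the difference was not tested. Among 20 glycosidases and lipases, the alpha-glucosidase gene *tobi* was the only 1 called (LFC -1.51 ± 0.31, edgeR adjusted p = 0.021, and 0.133 without fed AFC replicate 3), and the amylase gene *Amy-p* had an LFC of 0.19.

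Detoxification genes moved in both directions, family by family. Glutathione S-transferases attach glutathione to foreign compounds, and 4 of 35 were called, all lower and all of the *GstD* cluster on chromosome 3R. *GstD2* had 116, 87.2 and 189.7 CPM in fed SFCs, against 948, 946 and 798 CPM in fed AFCs (LFC -2.78 ± 0.32, edgeR adjusted p = 0.000822). *GstD3*, *GstD8* and *GstD4* fell with LFCs of -2.54, -3.55 and -3.19, and *GstD4* was at an adjusted p of 0.0693 by edgeR without fed AFC replicate 3. Their neighbours did not all follow. *GstD1* had 1511, 1771 and 2706 CPM in fed SFCs, against 4779.9, 4034 and 5082 CPM in fed AFCs (LFC -1.21 ± 0.35, edgeR adjusted p = 0.0903). *GstD5*, chosen after its values were seen, had 397, 310.0 and 1141 CPM in fed SFCs, against 277, 80.8 and 239 CPM in fed AFCs, above in every SFC library and not called (LFC 1.63 ± 0.57, edgeR adjusted p = 0.151). The members of the cluster are similar in sequence and the estimated counts may share reads among them.

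Among 83 cytochrome P450 genes 3 were called higher and 4 lower, with a median LFC of 0.09. *Cyp4g1*, for the enzyme of the oenocytes that makes cuticular hydrocarbons, had 125, 118 and 109.8 CPM in fed SFCs, against 48.3, 55.7 and 32.2 CPM in fed AFCs (LFC 1.37 ± 0.27, edgeR adjusted p = 0.02, and 0.118 without fed AFC replicate 3). *Cyp6a17* was nearly restricted to one group, with 7.73, 15.3 and 6.47 CPM in fed SFCs, against 0.183, 0.0256 and 0 CPM in fed AFCs, and was the opposite of *Cyp4p2*, with 0.0172, 0 and 0 CPM in fed SFCs, against 2.21, 2.23 and 3.1 CPM in fed AFCs. Also lower was *sad*, an enzyme gene of ecdysone synthesis, with 8.7, 10 and 5.76 CPM in fed SFCs, against 20.1, 20.9 and 31.9 CPM in fed AFCs (LFC -1.58 ± 0.37, edgeR adjusted p = 0.0391, and 0.262 without fed AFC replicate 3). *shd*, for the enzyme that makes the active hormone from ecdysone, had 0.276, 0 and 0.105 CPM in fed SFCs, against 9.52, 2.18 and 3.3 CPM in fed AFCs (edgeR adjusted p = 0.0468, and 0.147 without SFC replicate 3). The family had 1 called gene when fed AFC replicate 3 was left out. *Cyp6a18* rose and *Cyp309a1* fell, with LFCs of 2.25 and -1.27. Of 29 UDP-glycosyltransferase genes 1 was called higher and 1 lower. The higher one, *Ugt49C1*, had 12.3, 60 and 5.93 CPM in fed SFCs, against 3.9, 1.72 and 2.66 CPM in fed AFCs (LFC 3.23 ± 0.73, edgeR adjusted p = 0.0342, and 0.139 without fed AFC replicate 3). The lower one, *Ugt36A1*, had 4.37, 5.78 and 4.58 CPM in fed SFCs, against 28.9, 22.2 and 32.9 CPM in fed AFCs (LFC -2.51 ± 0.32, edgeR adjusted p = 0.00178, called in all 6 leave-one-out fits).

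The ecdysteroid kinase-like family, enzymes held to phosphorylate steroid hormones and other small molecules, was added as a class after leading genes had been seen. Of 49 tested genes 5 were called higher and 3 lower, with 11 above and 4 below in every SFC library. *CG11893* had 15.9, 32.4 and 7.71 CPM in fed SFCs, against 1.04, 1.31 and 1.79 CPM in fed AFCs (LFC 3.76 ± 0.58, edgeR adjusted p = 0.00576, called in all 6 leave-one-out fits). *CG33509*, *CG11889*, *CG9259* and *CG9498* rose with LFCs of 3.50, 2.05, 1.73 and 1.33, and *CG31104*, *CG31087* and *CG33301* fell with LFCs of -2.19, -1.90 and -1.61. *CG31104* was the only 1 of the 325 called genes with overlapping groups, since SFC replicate 2 at 32.2 CPM exceeded fed AFC replicate 2 at 28.9 CPM. *CG11893*, *CG11889*, *CG31104* and *CG31087* lie in one stretch of chromosome 3R, so that members of opposite direction stand side by side. *CG11889* has the same span as *CG11891*, which was not called, and the split of reads between them is uncertain. Without fed AFC replicate 3 the family had 1 called gene.

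Metal-binding genes split within a single family. Metallothioneins are small cysteine-rich proteins that bind copper and other metals, and *MtnB*, *MtnD* and the copper importer gene *Ctr1B* were the 3 called of 30 metal genes, all lower. *MtnB* (FBgn0002869, chromosome 3R, 20503102 to 20503746) had 26, 37.8 and 17.7 CPM in fed SFCs, against 381, 223 and 259 CPM in fed AFCs (LFC -3.41 ± 0.38, edgeR adjusted p = 0.000696). *Ctr1B* had 12, 30.3 and 13.9 CPM in fed SFCs, against 111, 88.9 and 107 CPM in fed AFCs (LFC -2.45 ± 0.36, edgeR adjusted p = 0.00403). *MtnB* and *Ctr1B* were called in all 6 leave-one-out fits, and *MtnD*, with an LFC of -2.06, was at an adjusted p of 0.0656 by edgeR without SFC replicate 3. *MtnA* stood opposite, with 5039.7, 19300.0 and 13071 CPM in fed SFCs, against 2779.6, 1202 and 2813 CPM in fed AFCs. Every SFC library exceeded every AFC library and *MtnA* was not called (LFC 2.46 ± 0.64, edgeR adjusted p = 0.0641).

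The machinery that makes and exports proteins was lower on the whole, with few genes past the threshold. All 84 cytoplasmic ribosomal protein genes had negative LFCs, between -1.53 and -0.08, with a median of -0.92, where 55.9% of all genes tested were negative. None was called by edgeR, with 56 at an unadjusted p below 0.05 against 19.7% of all genes, 47 called by DESeq2 and 2 by limma-voom, and 8 were called by edgeR without fed AFC replicate 1. Their summed level was 93823, 131792 and 163036 CPM in the SFC libraries, from low to high, against 158302, 230197 and 345517 CPM in the AFC libraries, and the highest SFC library overlapped the lowest AFC library. Of 75 mitochondrial ribosomal protein genes 4 were called lower, with 73 negative and a median of -0.65. Without fed AFC replicate 1 there were 17, and 0 without SFC replicate 2, SFC replicate 3, fed AFC replicate 2 or fed AFC replicate 3. Among 40 genes of the ER translocon and the COPI and COPII coats 5 were called lower, all of them at the site where proteins enter the ER. *Spase12*, for a signal peptidase subunit, had 51.2, 49 and 37 CPM in fed SFCs, against 156, 142 and 198 CPM in fed AFCs (LFC -1.86 ± 0.24, edgeR adjusted p = 0.00196, called in all 6 leave-one-out fits). *Sec61beta*, for a subunit of the translocation channel, had 268, 277 and 243 CPM in fed SFCs, against 794, 595 and 986 CPM in fed AFCs (LFC -1.59 ± 0.26, edgeR adjusted p = 0.00767, and 0.0509 without fed AFC replicate 3). The other 3 were *Sec61gamma*, *Srp19* of the signal recognition particle and *Spase25*, with LFCs of -1.20, -1.07 and -1.04, and the class had 1 called gene without fed AFC replicate 3 and 2 with the exon length trend removed. The proteasome (37 genes, median -0.48) and nuclear-encoded oxidative phosphorylation (75 genes, median -0.49) had 0 called genes by edgeR, with 14 and 28 at an unadjusted p below 0.05, 12 and 23 called by DESeq2 and 0 and 2 by limma-voom.

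Most of these classes hold short genes, and level moved with exon length. Median exon length was 909.5 bp for cytoplasmic and 790 bp for mitochondrial ribosomal proteins. It was 842 bp for nuclear-encoded oxidative phosphorylation and 1319 bp for the proteasome. The translocon, COPI and COPII class, at 2035.5 bp, was not short. Over 285 genes with under 500 bp of exon the median LFC was -0.41, and it was -0.48, -0.23, -0.01 and 0.19 in the next 4 length classes and 0.42 over the 483 genes with 8000 bp or more. The share of genes called lower followed this order for the most part, with 29 genes (10.2%) in the shortest class, 1 gene in the class from 4000 bp and 0 of the longest. The share called higher did not, with 12 genes (4.21%) in the shortest class, 0.683% in the class from 2000 bp and 11 genes (2.28%) in the longest. Summed exon length had a median of 964 bp in the genes called lower, 1524 bp in those called higher and 2026 bp in all genes. The libraries of a group were not alike in this. Against the mean of the fed AFC libraries, genes of 8000 bp or more had a median log2 CPM difference of 0.07, 0.48 and 0.79 in SFC replicates 1, 2 and 3, and of 0.68, -0.38 and -0.35 in fed AFC replicates 1, 2 and 3, so that AFC replicate 1 lay among the SFC libraries. With the trend removed, the median of the cytoplasmic ribosomal proteins was -0.55 and that of the mitochondrial ones -0.23, and none of the 4 mitochondrial calls remained. The median was then -0.12 for nuclear-encoded oxidative phosphorylation and -0.22 for the proteasome. It was -0.44 for the translocon, COPI and COPII class, against -0.08 over all genes. The part of RNA quality or fragment selection in this trend was not tested. Long genes that were called higher include the chromatin remodelling genes *kis*, *dom* and *osa* and the acetyltransferase complex gene *Nipped-A*, chosen after their values were seen. *kis* had 380.3, 272 and 522 CPM in fed SFCs, against 179, 106 and 90.5 CPM in fed AFCs (LFC 1.64 ± 0.38, edgeR adjusted p = 0.037, and 0.11 with the trend removed). *Nipped-A* had 72.9, 79.9 and 75.3 CPM in fed SFCs, against 36.6, 36.5 and 34.5 CPM in fed AFCs (LFC 1.08 ± 0.20, edgeR adjusted p = 0.0136, and 0.4 with the trend removed). None of these 4 genes was called without fed AFC replicate 3, with adjusted p-values by edgeR of 0.181, 0.139, 0.175 and 0.0978.

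**Figure D4:**
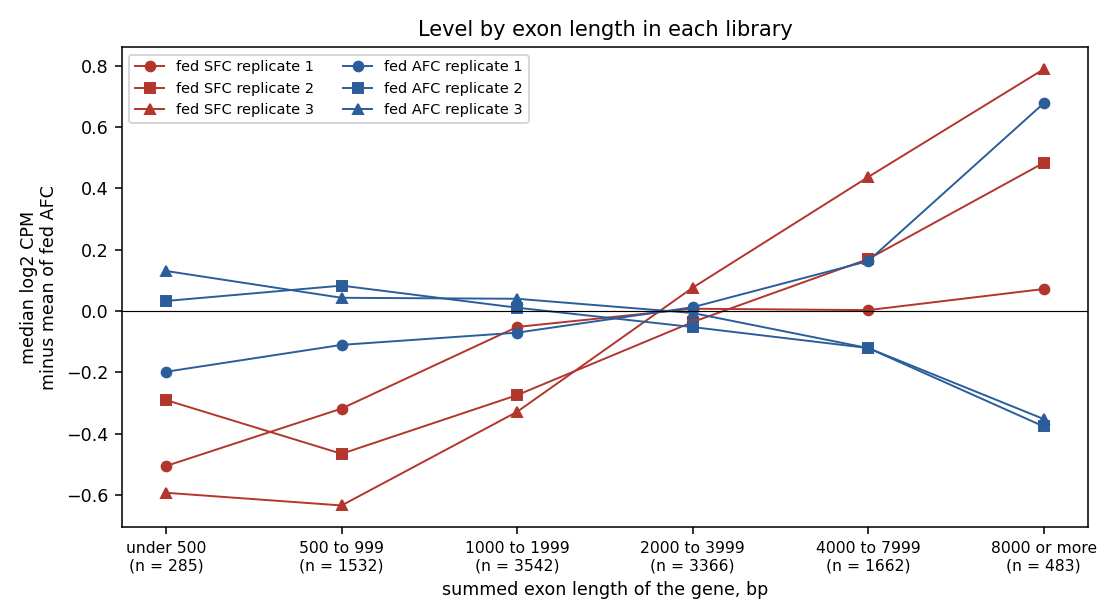
Median log2 CPM of genes in 6 classes of summed exon length (bp), as the difference of each library from the mean of the 3 fed AFC libraries, with SFC replicates in red and AFC replicates in blue. In the longest class the SFC libraries lie at 0.07 to 0.79, AFC replicate 1 at 0.68 and the other AFC replicates at -0.38 and -0.35.

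Genes tied to the clearing of nurse cells changed little as classes. V-ATPase pumps acidify lysosomes and, in SFCs, the space around the nurse cells, and 1 of 27 tested subunit genes was called. This was *Vha68-1*, for a catalytic subunit A, with 20.9, 26.2 and 26.5 CPM in fed SFCs, against 7.11, 4.41 and 4.9 CPM in fed AFCs (LFC 2.16 ± 0.39, edgeR adjusted p = 0.0123, and 0.076 without fed AFC replicate 3). *Vha13*, another subunit gene, had 1349, 1747 and 1406 CPM in fed SFCs, against 1629, 1375 and 1656 CPM in fed AFCs, with full overlap. Of 30 genes listed as lysosomal 1 rose, the mannosidase gene *alpha-Man-IIa* (LFC 0.81), and 1 fell, *Npc2a*, for a carrier of sterols (LFC -1.25). Neither was called without fed AFC replicate 3, and the call of *alpha-Man-IIa* was lost in every leave-one-out fit. Whether each listed gene, *alpha-Man-IIa* among them, acts in lysosomes was not tested. Of 21 engulfment genes 1 rose. *NimB2*, for a secreted Nimrod protein and also on the hemocyte list, had 29.6, 60.1 and 36.8 CPM in fed SFCs, against 16.3, 15.8 and 18 CPM in fed AFCs (LFC 1.34 ± 0.28, edgeR adjusted p = 0.0268, and 0.0992 without fed AFC replicate 3). Autophagy (22 genes), ESCRT and endosome (16) and JNK pathway (18) genes had 0 called by edgeR, with 2, 5 and 1 at an unadjusted p below 0.05, 1, 3 and 1 called by DESeq2 and 0, 1 and 0 by limma-voom. Among all genes tested 19.7% were at an unadjusted p below 0.05 by edgeR, and DESeq2 called 11.1% of its genes. *Bruce*, for a large inhibitor of apoptosis protein and with 15702 bp of exon one of the long genes, had 106, 106 and 102 CPM in fed SFCs, against 64.3, 29 and 39.4 CPM in fed AFCs (LFC 1.24 ± 0.30, edgeR adjusted p = 0.0479, 0.23 with the exon length trend removed and 0.203 without fed AFC replicate 3).

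Signalling classes gave single genes. Called higher were 1 of 26 BMP pathway genes, 1 of 38 insulin and TOR genes and 1 of 22 Notch pathway genes. Among the Notch pathway genes 1 was called lower. JAK-STAT (14 genes), EGFR (23) and Hippo pathway (17) genes had 0 called by edgeR and by limma-voom. DESeq2 called 0, 2 and 1 of them in this order. *magu*, for a secreted protein of BMP signalling, and *numb*, for an inhibitor of Notch, rose with LFCs of 1.21 and 1.28, and the Notch target gene *E(spl)mbeta-HLH* had 5.61, 1.9 and 3.24 CPM in fed SFCs, against 11.4, 16.6 and 20.3 CPM in fed AFCs (LFC -2.16 ± 0.43, edgeR adjusted p = 0.0196). *rictor*, for a subunit of TORC2, had 50.3, 45.8 and 72.8 CPM in fed SFCs, against 32.6, 23.4 and 21.2 CPM in fed AFCs (LFC 1.13 ± 0.27, edgeR adjusted p = 0.0422). None of these 4 genes was called without fed AFC replicate 3, where their edgeR adjusted p-values were 0.18, 0.185, 0.139 and 0.23 in this order. Ecdysone genes, with 28 tested, had 1 called higher, the calcium-binding gene *Eip63F-1* (LFC 1.31), and 3 lower, *Sox14*, *sad* and *shd*, and none of these 4 was called without fed AFC replicate 3. Of the 36 germline genes only *bcd*, whose mRNA marks the anterior of the oocyte, was called. It had 103, 74.4 and 83.1 CPM in fed SFCs, against 24.7, 36.4 and 19.5 CPM in fed AFCs (LFC 1.69 ± 0.33, edgeR adjusted p = 0.0188, and 0.103 without fed AFC replicate 3).

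Some called genes were neighbours. Between 2 genes of a run no other tested gene lies, and 22 runs of called genes with one direction held 57 genes, 17.5% of the 325, in 8 runs higher with 17 genes and 14 runs lower with 40. The longest, with 6 genes, was the chorion gene cluster of chromosome 3L from 8721324 to 8732599 with *Cp18*, *Cp15*, *Cp19* and *Cp16* and their neighbours *CG6511* and *CG43965*. *CG43965* is not on the chorion list and had 28.6, 22.8 and 23.9 CPM in fed SFCs, against 470.4, 495 and 741 CPM in fed AFCs (LFC -4.50 ± 0.59, edgeR adjusted p = 0.00196). It lies inside *CG6511*. Beside the vitelline membrane genes of chromosome 2L, *CG13998* fell in the same way, with 1.98, 3.21 and 1.41 CPM in fed SFCs, against 19.4, 12 and 28 CPM in fed AFCs (LFC -3.18 ± 0.48, edgeR adjusted p = 0.00522). Other runs were the lysozymes, *GstD2* to *GstD4*, the aldo-keto reductase genes, *BomT3* with *BomBc3*, and *Obp56a* with *Obp56d*, so that gene families account for many of them.

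One stretch of the X chromosome held neighbours with no shared family. It was chosen after its values were seen, as the window of 150 kb with the most called genes lay there, and is therefore given as a description. Between *Zw10* and *Syx4*, from 2604197 to 2744076 of BDGP6.54, 12 of 27 tested genes were called, all lower, with LFCs from -1.57 to -0.999. Of the 27, 26 had negative LFCs and 20 were below in every SFC library, and the median was -1.15. The other 1777 X genes had 18 called higher and 22 lower and a median of -0.08, and the 12 genes on either side had medians of -0.44 before and -0.34 after. The 12 genes have unrelated roles, among them the kinetochore gene *Zw10*, the translation factor gene *eIF3g1*, the mitochondrial protease gene *Spg7*, the zinc finger gene *dwg* and the syntaxin gene *Syx4*. *dwg* had 26.7, 18.9 and 25.7 CPM in fed SFCs, against 51.1, 78 and 67.7 CPM in fed AFCs (LFC -1.46 ± 0.23, edgeR adjusted p = 0.00669, and 0.0666 without SFC replicate 2). *Syx4* had 7.44, 14.4 and 7.4 CPM in fed SFCs, against 30.7, 27.9 and 27.7 CPM in fed AFCs (LFC -1.57 ± 0.34, edgeR adjusted p = 0.0276, and 0.0948 without SFC replicate 3). Summed over all 27 tested genes the level was 1015, 900 and 954 CPM in fed SFCs, against 1653, 2036 and 2027 CPM in fed AFCs. The interval was picked for its genes called lower in SFCs, so the gap between these sums follows in part from that choice. The starved AFC libraries, which share *GR1-Gal4*, had sums of 2207, 2119 and 1772 CPM over the 27 genes, which overlap the fed AFC values and not the SFC values. Driver line and cell type cannot be told apart as the source of this step. *CG2680*, inside the interval, was the 1 gene with a positive LFC (0.48 ± 0.32).

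**Figure D5:**
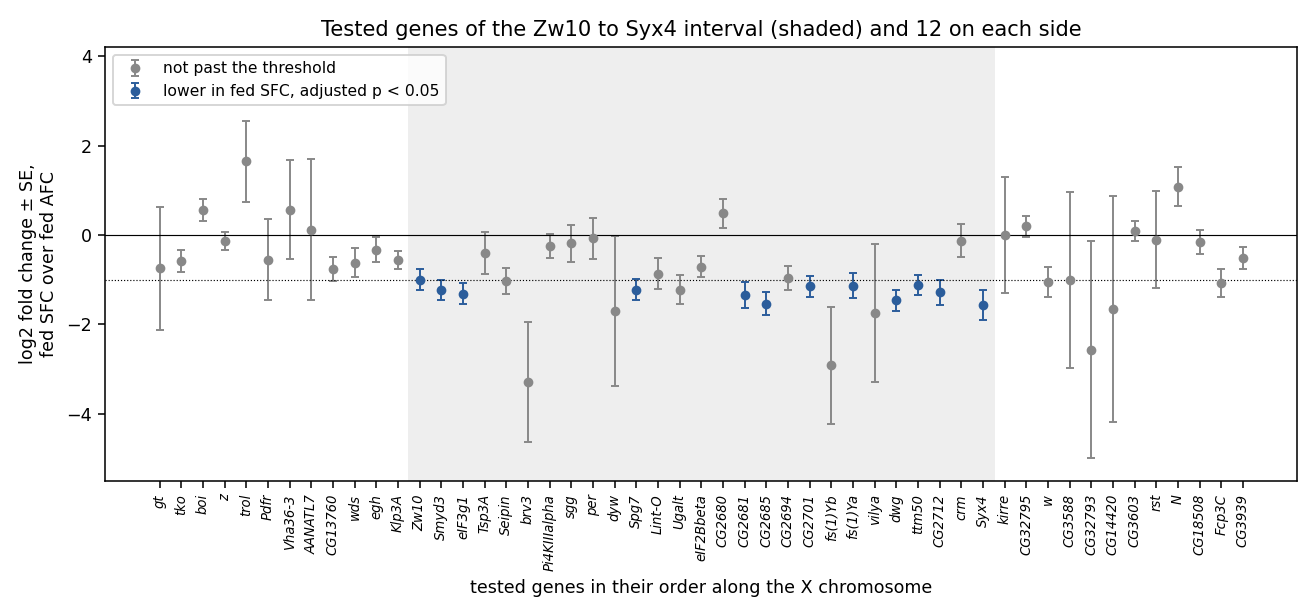
LFC ± SE of fed SFC over fed AFC for the 27 tested genes from *Zw10* to *Syx4* (shaded) and the 12 tested genes on each side, in their order along the X chromosome, with called genes in blue and a dotted line at -1. The 12 called genes lie between -1.57 and -0.999, all inside the shaded stretch.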

How the data were processed

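TRAP-seq reads of 75 bases were sequenced from unstranded TruSeq v2 libraries, so overlapping and antisense genes cannot be told apart, and near-identical copies may share reads. The submitters' processing notes name bcl2fastq 2.2, cutadapt, Salmon 1.1.0 and the build BDGP6. The estimated counts deposited by the authors are Salmon output per transcript, without normalization. The TPM values deposited beside them were not used. The effective lengths deposited by the authors (another unit, in bases) served only as offsets in 1 alternative. The number of unmapped columns was 0.

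Of 30215 transcripts, 30179 matched the BDGP6.54 annotation, which gave 14077 genes and all coordinates. Counts were summed per gene and rounded. edgeR 4.0.16 (R 4.3.3) fitted all 9 libraries with 1 mean per group, TMM scaling and filterByExpr with a minimum count of 10. The common dispersion was 0.362. Benjamini-Hochberg adjustment ran over all 10870 genes tested. The script was tested on simulated data. Alternatives used DESeq2 1.42.0, limma-voom (limma 3.58.1), other filters, scalings and libraries. After seeing the data, a removal of the trend with exon length was added, and a fit without both SFC replicate 2 and fed AFC replicate 1.

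Members and gene lists were chosen with earlier results of these data known, and no list was tested as a set. Genes were named by a rule. It took the tagged gene, the 12 leading genes by adjusted p among those higher, and likewise among those lower, with groups apart, the 10 called genes with the highest CPM, up to 4 called members per class and direction with its highest member, and the markers. Other genes named were chosen after their values were seen. Figures were drawn with Python 3.11.15 and matplotlib 3.10.9.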

Additional observations from a re-analysis of the deposited data

How the results depend on the processing

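Against 325 called genes (132 higher, 193 lower), DESeq2 called 1097 (415 and 682), an adjusted p below 0.01 left 87 (29 and 58), and the replicate number as a block gave 186 (75 and 111). The numbers were not found to pair the libraries, since same-numbered SFC and AFC libraries had deviations correlated at -0.119, 0.115 and -0.28. With each library left out in turn, 85 to 487 genes were called, 33 to 194 higher and 52 to 293 lower. Without SFC replicate 2 and fed AFC replicate 1 at once, 468 genes were called, 265 of them lower. A fit of only the 6 fed libraries tested 10188 genes and called 230 (91 higher and 139 lower), 215 of them among the 325. The number of classes with at least 2 called members in 1 direction was 15, it was 25 by DESeq2, 8 to 20 with 1 library left out, and 11 with the replicate block. The cause of these shifts was not tested. Of 3724 values of named genes under the alternatives, 3258 stayed on their side of the threshold, 428 lost the call, 38 gained it and 0 changed sign past the threshold. Of the class medians under the alternatives, 1363 stayed within the spread between replicates and 95 moved further. All alternatives planned were run. Genes with too few reads for the test, such as 30 of 48 odorant-binding protein genes, could not be compared at this depth.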

Other observations

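Other secretory and stress classes gave single values. *Cpr67B*, a cuticle protein gene, had 31, 57.3 and 7.99 CPM in fed SFCs, against 4.1, 5.23 and 2.75 CPM in fed AFCs (LFC 2.99 ± 0.65, edgeR adjusted p = 0.0303), and *Peritrophin-15a*, for a protein of the lining of the midgut, had 10.2, 19.3 and 6.31 CPM in fed SFCs, against 41.7, 47.8 and 51.1 CPM in fed AFCs (LFC -1.98 ± 0.39, edgeR adjusted p = 0.0199). They were the 2 called of 93 tested cuticle and chitin genes. Neither was called without fed AFC replicate 3, with edgeR adjusted p-values of 0.139 and 0.076. *Hsp23* was the 1 small heat shock protein gene of 11 that rose, with 19.4, 34.5 and 20.2 CPM in fed SFCs, against 5.99, 12.7 and 8.61 CPM in fed AFCs (LFC 1.44 ± 0.35, edgeR adjusted p = 0.0469, and 0.203 without fed AFC replicate 3). Adherens and septate junctions (40 genes), basement membrane and integrins (25), innexins (7) and Rab GTPases (29) had no gene called by edgeR, with 7, 3, 0 and 1 at an unadjusted p below 0.05, 3, 1, 0 and 1 called by DESeq2 and 0 by limma-voom.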
